A study of Mus musculus with 55 samples.

Results

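Common lymphoid progenitors (CLPs) of *Tet2* knockout mice were compared with those of wild-type (WT) mice, across all genes with enough counts to be tested. The comparison takes 8 of the 46 libraries in the first of the count tables, out of 55 libraries in the whole series: the 4 CLP libraries labelled knockout (Tet2KO 2, 3, 4 and 5) and the 4 labelled WT (WT 2, 3, 4 and 5). The knockout mice carried floxed *Tet2* alleles with *Mx1*-Cre (*Tet2* f/f, *Mx1*-Cre), in which the Cre recombinase is driven by the interferon-responsive *Mx1* promoter. They were given 5 doses of poly(I:C), a synthetic double-stranded RNA that induces interferon, from 4 weeks of age, and were kept for 16 weeks before sorting. Expression of *Mx1*-Cre is not restricted to blood cells, and whether the WT mice received poly(I:C) too is not clearly stated in the sources used here. The cells were sorted from bone marrow as lineage-negative, cKit+, Sca1 intermediate, CD127+ cells, and each library was made from about 200 cells per the labels (300 per the methods) by an amplified full-length protocol of the SMART-Seq2 type.

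CLPs are rare marrow progenitors that give rise to B cells, and also to T cells, natural killer (NK) cells and innate lymphoid cells. They respond to interleukin 7 through CD127, the product of *Il7r*, and to FLT3 ligand, and they begin to express the recombination genes *Rag1*, *Rag2* and *Dntt* before the immunoglobulin loci are fully rearranged. TET2 is a dioxygenase that oxidises 5-methylcytosine in DNA, a step towards its removal. Its loss is best known from clonal expansion of stem and myeloid cells, and the study asked which signalling pathways change with it.

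The 8 libraries held 61777945 to 90999591 counts, 66875693 to 90999591 in Tet2KO and 61777945 to 74270103 in WT, and between 13754 and 16903 genes with a count. Of 55421 genes in the table, 22880 had a count in these libraries and 13060 passed the filter on low counts. Levels are given as CPM, the counts scaled to a common library size, after TMM scaling, and where 4 values follow each other they belong to libraries 2, 3, 4 and 5 in that order. At this depth the limit set by 3 counts lay between 0.0285 and 0.07 CPM. Nothing in the labels says that libraries of a group came from separate sorts, so p-values measure the spread between these samples.

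Tet2KO 2 stood apart before any gene was tested, and Tet2KO 3 did so by its mitochondrial share. The median correlation of Tet2KO 2 with the other libraries was 0.5, against 0.573 to 0.637 for the other 7, and limma's quality weight for it was 0.202 against 0.958 to 1.58. Tet2KO 2 also had the highest share of counts from the mitochondrial genome, 12.47%, followed by Tet2KO 3 with 7.823%, while the other 6 libraries had 2.408% to 4.582%. List medians are given with and without Tet2KO 2 and 3, as are values of some of the genes.

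The libraries differed in what their counts were made of. Immunoglobulin genes, which encode antibodies and are transcribed at high levels in plasma cells, took 25.42%, 39.57%, 41.82% and 37.18% of all counts in the WT libraries. In the Tet2KO libraries they took 0.08152%, 8.535%, 26.11% and 29.05%. The Tet2KO values spread over a range that reached into the WT range only at its top, and the means were 15.9% ± 13.9 and 36.0% ± 7.30 (SD, n = 4 each; two-sided exact permutation p = 0.0857). In common myeloid progenitors (CMPs) of both genotypes immunoglobulin genes took 0.00749% to 0.0231% of counts, and in megakaryocyte-erythroid progenitors (MEPs) at most 0.00546%, so that even Tet2KO 2, the lowest CLP library, was above them.

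**Figure D1:**
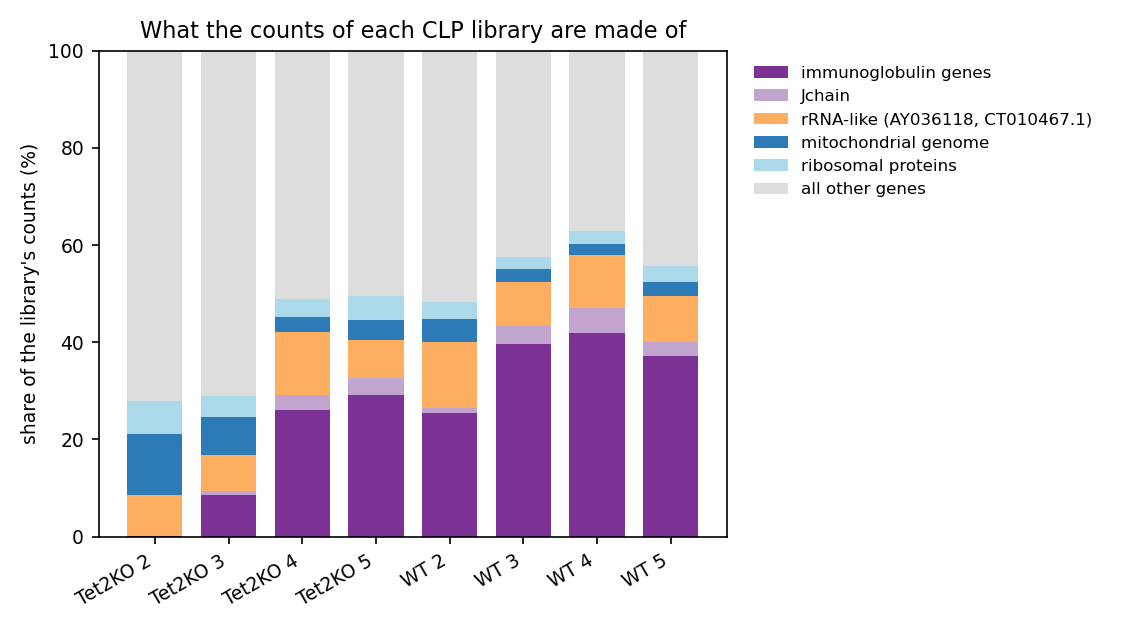
Stacked bars give the share of each CLP library's counts (%, vertical axis) that fell on immunoglobulin genes, *Jchain*, a pair of rRNA-like genes, the mitochondrial genome, ribosomal protein genes and all other genes, 1 bar per library. Immunoglobulin genes fill 25.42% to 41.82% of the WT bars, 26.11% and 29.05% of Tet2KO 4 and 5, 8.535% of Tet2KO 3 and 0.08152% of Tet2KO 2.

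The genes that took the most counts were the constant regions. *Ighm*, the constant region of the IgM heavy chain (chr12:113418558-113422730), was the leading gene in Tet2KO 3 with 4.11% of counts, in Tet2KO 4 with 9.84%, in WT 2 with 10.3% and in WT 3 with 15.9%. *Igkc*, the constant region of the kappa light chain (chr6:70726435-70726966), led in Tet2KO 5 with 11.2%, in WT 4 with 13.5% and in WT 5 with 13.9%. Both were among the 10 leading genes in 7 of the 8 libraries. Tet2KO 2 was the exception: *Ighm* took 0.0616% and *Igkc* 0.00798% of its counts, and its leading genes were *AY036118* (5.1%, 95% Wilson interval 5.098% to 5.108%, counting error only), the mitochondrial ribosomal RNA *mt-Rnr2* (4.03%), *CT010467.1* (3.4%) and the mitochondrial *mt-Co1* (2.61%), which encodes a subunit of cytochrome oxidase. *AY036118* and *CT010467.1* overlap on chromosome 17 and match ribosomal RNA, so reads counted for one cannot be told from reads of the other. They were among the 10 leading genes of all 8 libraries and together took 7.434% to 12.82% in Tet2KO and 9.112% to 13.75% in WT.

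*Jchain*, the joining chain of secreted IgM and IgA, was at 17.4, 5940, 31200 and 34300 CPM in Tet2KO and 9570, 49500, 74900 and 31000 CPM in WT. It made up 5.18% of the counts of WT 4, and its groups overlapped. *Ighm* itself was at 429, 29500, 98300 and 93600 CPM in Tet2KO and 104000, 211000, 188000 and 141000 CPM in WT. Every Tet2KO library lay below every WT library, but the spread inside Tet2KO was so wide that the log2 difference of -1.54 (SE 1.12) had an adjusted p of 1 in edgeR's quasi-likelihood test. A class-switched constant region, *Ighg2b*, stood at 31300 CPM in WT 3 and at no more than 18.6 CPM in any other library, and the lambda constant region *Iglc1* at 22400 CPM in WT 4 and at no more than 2150 CPM elsewhere. These levels belonged to single libraries rather than to a genotype.

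The leading variable segments differed between many of the libraries, although some libraries shared a leader. Each B cell rearranges its own V segments, so a mixed population spreads its V counts over many of them. In WT 2, *Igkv1-135* made up 58.8% of all counts on 100 kappa V segments and *Ighv1-5* 68.6% of those on 113 heavy chain V segments. WT 4 shared the same leaders at 33.1% and 49.1%, while WT 5 was led by *Igkv14-126* (48.6%) and *Ighv11-2* (52.8%). WT 3 was the most even, with *Igkv8-24* at 19.4% and *Ighv9-3* at 18%. Among the knockouts, Tet2KO 3 was led by *Igkv12-44* (54.7%) and *Ighv3-1* (88.8%), Tet2KO 4 by *Igkv8-30* (37.6%) and *Ighv1-9* (46.5%), and Tet2KO 5 by *Igkv12-44* (32.7%) and *Ighv11-2* (37.8%). Among these 7 libraries the leading kappa segment took 32.7% to 58.8% except in WT 3, and *Ighv11-2* led in 1 library of each genotype. Tet2KO 2 had almost no V counts. V segments are near copies of each other, and reads could have been split between them in counting.

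The leading genes as a whole took a larger part of the WT libraries. The 10 leading genes took 21.35%, 21.45%, 39.15% and 39.41% of counts in Tet2KO and 37.86%, 45.64%, 52.29% and 47.36% in WT. The groups overlapped at 10 genes (means 30.3% ± 10.3 and 45.8% ± 5.99, two-sided exact permutation p = 0.0857) but not at 50 genes, where Tet2KO had 32.76% to 49.65% and WT 49.79% to 65.14% (two-sided exact permutation p = 0.0286, the smallest that 4 against 4 libraries can give). The TMM factors, which scale each library by the bulk of its genes, were 1.45, 1.41, 1.01 and 1.03 in Tet2KO and 0.994, 0.757, 0.694 and 0.907 in WT. Leaving the immunoglobulin and rRNA-like genes out before scaling moved neither the median change of all genes (0.06 against 0.07 on the log2 scale) nor the gene that was called below.

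The sorted label was then set against marker genes. Of 12 CLP markers, 11 passed the filter, and all 6 genes of the sorting gate did. *Il7r*, the interleukin 7 receptor chain of the gate, was at 823, 199, 174 and 246 CPM in Tet2KO and 268, 435, 484 and 401 CPM in WT. Tet2KO 2 was the highest library and the other 3 Tet2KO libraries lay below all WT libraries, so the groups overlapped. *Flt3*, the receptor of FLT3 ligand, was at 26.1, 46.4, 110 and 126 CPM in Tet2KO and 15.4, 73.8, 0 and 69.2 CPM in WT, and *Dntt*, the terminal transferase of V(D)J joining, at 349, 102, 718 and 1200 CPM against 294, 292, 0.655 and 504 CPM. WT 4 thus held almost no *Dntt* and no *Flt3* count, while every other library held both.

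*Rag1*, a subunit of the V(D)J recombinase, was at 6.89, 1.71, 0.0448 and 14 CPM in Tet2KO and had no count in WT 2, 3, 4 or 5. The Tet2KO 4 value is at the limit of 3 counts, so only Tet2KO 2, 3 and 5 lay above it, and *Rag1* did not pass the filter. *Rag2*, the other subunit, was at 26, 1.82, 14.3 and 50.9 CPM in Tet2KO and 23, 0.0949, 0 and 22.6 CPM in WT, with overlapping groups. *Kit*, the stem cell factor receptor of the gate, was at 121, 215, 87.1 and 76.5 CPM in Tet2KO and 67.9, 72.8, 58.9 and 57.9 CPM in WT. All Tet2KO libraries were above all WT libraries, but with edgeR the log2 fold change of 0.96 (SE 0.36) had an adjusted p of 1, and it was 0.55 without Tet2KO 3 and 0.32 without Tet2KO 2 and 3.

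*Ly6d*, which marks CLPs committed to the B lineage, was at 52, 79.5, 289 and 402 CPM in Tet2KO and 483, 740, 908 and 500 CPM in WT. The groups did not overlap, and Tet2KO 2 and 3 were the lowest libraries. The log2 fold change was -1.68 (SE 0.64, edgeR adjusted p = 1) with all libraries and -0.95 without Tet2KO 2 and 3. Over the 11 CLP markers tested, 7 differences were positive and 4 negative, and the median was 0.49 (0.32 without Tet2KO 2 and 3), beside 0.07 over all genes. None was called by edgeR. DESeq2 called *Ccr9* lower, beside 0.904% of all genes it tested.

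Markers of other cell types were present in amounts that differed between libraries. The 6 plasma cell markers (*Jchain*, *Igkc*, *Xbp1*, *Mzb1*, *Sdc1* and *Prdm1*) summed to 207, 25400, 116000 and 145000 CPM in Tet2KO and to 71900, 191000, 274000 and 187000 CPM in WT. All 6 differences were negative, with a median of -1.56 (-0.98 without Tet2KO 2 and 3, -2.35 without Tet2KO 4) and none called by edgeR. *Mzb1*, a chaperone of antibody assembly, was at 34.9, 148, 789 and 434 CPM in Tet2KO and 803, 1570, 1970 and 803 CPM in WT, so its groups did not overlap. *Sdc1*, the surface protein CD138 by which plasma cells are sorted, was at 0.0383, 116, 295 and 136 CPM against 196, 517, 668 and 268 CPM. Tet2KO 2 was lowest for both genes and held almost no *Sdc1*. Immunoglobulin genes were thus among the 10 leading genes of 7 of the 8 libraries, Tet2KO 2 being the exception, and no CLP marker was among the 10 leading genes of any library. In bulk samples fewer cells of a type and less RNA per cell cannot be told apart.

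Tet2KO 2 had the highest summed level of NK cell genes. The NK marker list summed to 1980 CPM in Tet2KO 2 and to 221 to 632 CPM in the other libraries, with *Ncr1*, the NK receptor NKp46, at 1070 CPM. *Id2*, a regulator of innate lymphoid cells and NK cells, was at 1610 CPM there. Not every gene of the NK list was highest in Tet2KO 2. On the scale of all 46 libraries, *Gzma* reached 32.9 CPM in a WT CLP library and at most 0.099 CPM in Tet2KO CLPs. *Igll1*, a surrogate light chain gene of pro-B cells, was at 83.2, 0, 5.25 and 44.9 CPM in Tet2KO and at most 0.0569 CPM in WT, and *Pax5*, the B lineage commitment factor, at 17.3, 0.465, 0.0897 and 2.57 CPM with no count in WT. Neither gene passed the filter. *Vpreb3*, a pre-B cell gene of the same list that did pass, was at 6.79, 14.1, 1.93 and 15.7 CPM in Tet2KO and 11.3, 23.9, 31.9 and 0.114 CPM in WT, with overlapping groups. *Igll1* and *Pax5* were highest in Tet2KO 2, but *Rag1*, *Rag2* and *Dntt* were highest in Tet2KO 5. B cell markers as a list summed to 254, 250, 533 and 484 CPM in Tet2KO and 433, 987, 971 and 493 CPM in WT, so Tet2KO 2 was next to the lowest library.

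Tet2KO 3 had the most RNA of the neutrophil list, but not of every myeloid list. The neutrophil list summed to 1.94, 9380, 1700 and 2950 CPM in Tet2KO and 2190, 864, 8.57 and 22.1 CPM in WT. *Mpo*, the peroxidase of primary granules, was at 5560 CPM in Tet2KO 3, at 1210 and 1660 CPM in Tet2KO 4 and 5 and at 1300 CPM in WT 2. The megakaryocyte gene *Pf4*, platelet factor 4, reached 810 CPM in Tet2KO 3 and 282 CPM in Tet2KO 5 and was at most 0.531 CPM elsewhere. Mast cell and basophil genes went the other way, at 2230 and 2210 CPM in WT 2 and 3 and at most 566 CPM in the others. Late neutrophil genes (*S100a9*, *Ngp*, *Ltf*, *Camp*, *Retnlg*, *Ly6g*) had no count in any of the 8 libraries, nor did *Cd3e* and *Cd8a* of T cells, *C1qa* and *C1qb* of macrophages or *Alas2* of erythroid cells. Other genes of those lists did have counts. The T cell list summed to 146, 118, 51.1 and 46.4 CPM in Tet2KO and 109, 49.9, 74.6 and 150 CPM in WT, most of it, except in WT 4, from *Lck*, a kinase of T cell receptor signalling (133, 62.6, 38.9 and 39.1 against 88.2, 42.2, 19.4 and 119 CPM), with *Cd4* up to 52.2 CPM and *Bcl11b* up to 42.7 CPM. The macrophage and monocyte list summed to 157, 1280, 831 and 1300 CPM in Tet2KO and 898, 1700, 1040 and 615 CPM in WT, with *Csf1r*, the receptor of macrophage colony-stimulating factor, up to 137 CPM. These lists overlapped between groups. The erythroid list summed to 0.0192 to 46.4 CPM over the 8 libraries, and of the late neutrophil genes *S100a8* reached 9.85 CPM and *Mmp8* 7.83 CPM, both in Tet2KO 3. The name CLP below stands for the sort label. The part of these other cell types in the differences below was not tested.

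**Figure D2:**
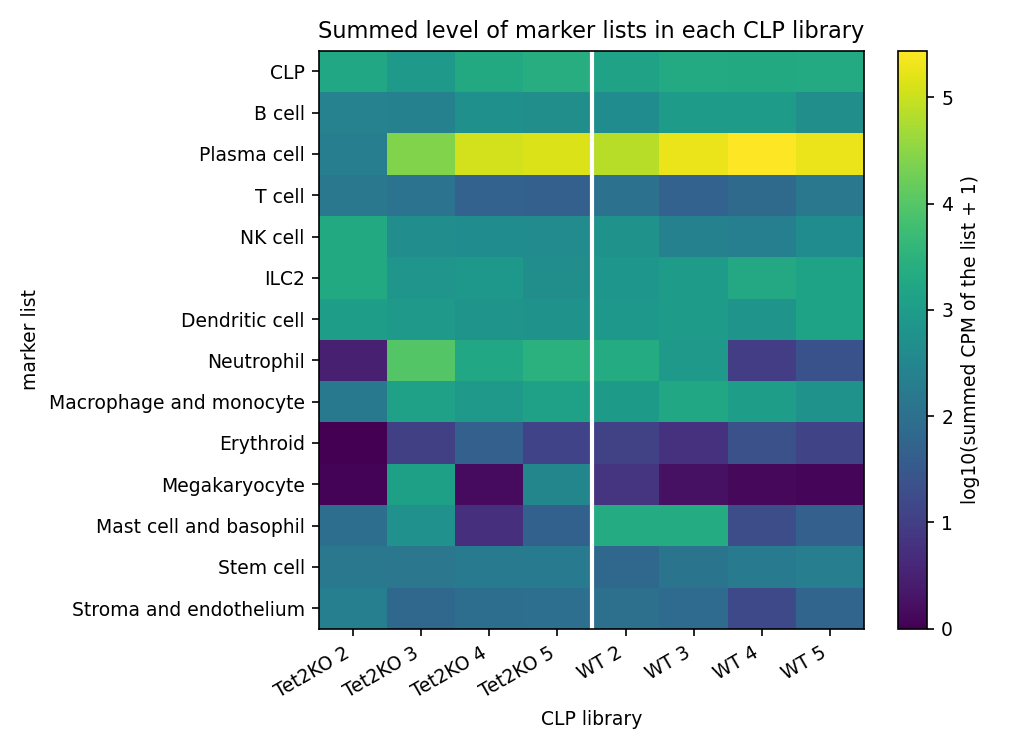
Each cell of the heat map gives log10(summed CPM of a marker list + 1), colour scale on the right, for 1 marker list (row) in 1 CLP library (column), with Tet2KO left and WT right of the white line. The plasma cell row runs from 207 CPM in Tet2KO 2 to 274000 CPM in WT 4, and the neutrophil row from 1.94 CPM in Tet2KO 2 to 9380 CPM in Tet2KO 3.

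*Tet2* itself (chr3:133463679-133545139, mm10, minus strand) was at 32.1, 56.3, 30.6 and 15.7 CPM in Tet2KO and 15.8, 19.3, 20.6 and 1.77 CPM in WT. Tet2KO 2, 3 and 4 were above all WT libraries and Tet2KO 5 lay among them. Counts were summed over the whole gene, so they do not check the loss of the deleted part. Over leave-one-out fits the log2 fold change ranged from 0.84 (without WT 5) to 1.44, and it was 0.65 without Tet2KO 2 and 3, with an edgeR adjusted p of 1 throughout. The fellow dioxygenases *Tet1* (28.7, 11.5, 24.1 and 7.94 CPM against 1.52, 20.3, 11.5 and 0 CPM) and *Tet3* (0, 25.4, 12.9 and 20.3 CPM against 16, 12.5, 2.13 and 19.5 CPM) overlapped between groups. Of 18 genes of cytosine methylation and demethylation tested, 15 differences were positive and 3 negative with none called by edgeR, and the median was 0.60 (0.52 without Tet2KO 2 and 3).

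Across all 13060 genes, 1 was called higher in Tet2KO CLPs (0.00766% of genes tested) and 0 lower (0%), by edgeR's quasi-likelihood test with calls at 2-fold or more and an adjusted p under 0.05. At an unadjusted p of 0.05 and 2-fold, 174 genes were higher (1.33%) and 215 lower (1.65%). Groups did not overlap for 254 genes that were higher (1.94%) and 253 that were lower (1.94%). The count of calls depended on the tool: DESeq2 called 292 genes higher (1.53% of those it tested) and 172 lower (0.904%), a fit of all 46 libraries 1002 (4.48%) and 475 (2.12%), and limma with quality weights 1 higher and 2 lower. A gene that edgeR did not call is not shown to be unchanged. On counts simulated with the spread that edgeR estimated, edgeR recovered few of the changed genes. Most of the genes DESeq2 called there had been given no change. The calls of DESeq2 are given as an alternative only, and the edgeR count is not taken as complete. The median log2 fold change of all genes was 0.07, and 54.1% of genes had a positive one. With the same edgeR test on their own 8 libraries, CMPs had 105 genes called higher (0.654%) and 629 lower (3.92%), granulocyte-macrophage progenitors (GMPs) 51 (0.308%) and 672 (4.06%), and MEPs 22 (0.147%) and 629 (4.21%).

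The called gene was *Rps3a3*, an intronless copy of the ribosomal protein gene *Rps3a1*. It was at 261, 127, 175 and 228 CPM in Tet2KO and 5.53, 6.83, 9.53 and 8.21 CPM in WT. The lowest Tet2KO library was far above the highest WT library, and the means were 198 ± 58.8 and 7.52 ± 1.73 CPM (SD, n = 4 each). The log2 fold change was 4.71 (SE 0.36, edgeR adjusted p = 0.00548), a 26.2-fold higher level. Without Tet2KO 2 and 3 it was 4.72, with an edgeR adjusted p of 0.031. The call was lost without WT 2, 3 or 5 (log2 fold changes of 4.56, 4.65 and 4.74, edgeR adjusted p of 0.0561, 0.101 and 0.1). With limma's quality weights (4.64, adjusted p = 0.0661) and with a replicate block (4.68, edgeR adjusted p = 0.3) it was lost too.

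The other processed copies behaved in the same direction without passing the test. *Rps3a2* was at 221, 138, 224 and 261 CPM in Tet2KO and 8.22, 6.91, 18.3 and 22.3 CPM in WT (log2 fold change 3.92, SE 0.47, edgeR adjusted p = 0.129). *Gm5586* was at 53.1, 26.2, 21.7 and 36.8 CPM in Tet2KO and 1.16, 0.968, 2.64 and 4.19 CPM in WT (3.93, SE 0.74, adjusted p = 0.376). The parent *Rps3a1*, which encodes the small-subunit protein eS1, was at 877, 451, 598 and 811 CPM in Tet2KO and 913, 836, 1260 and 752 CPM in WT, with overlapping groups (log2 difference -0.46, SE 0.32, adjusted p = 1 with edgeR).

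The copies are nearly the same sequence as the parent, which bears on how reads were assigned, so a stretch of each is shown. *Rps3a1* lies at chr3:86137940-86142702 (minus strand), on the chromosome that also holds *Tet2*. *Rps3a2* lies at chr14:88123017-88123808 (minus), *Rps3a3* at chr13:108670603-108671397 (plus) and *Gm5586* at chr7:16719116-16719910 (minus), all mm10. Over 792 aligned bases *Rps3a2* differed from the 977-base *Rps3a1* transcript at 4 positions (99.5% identity), *Rps3a3* over 795 bases at 9 (98.9%) and *Gm5586* over 795 bases at 12 (98.5%). Of all 100-base windows of the copies, 53.4%, 18.4% and 22.3% were identical to the parent. All 3 copies shared the substitutions T349C and T667C, counted from the first base of the *Rps3a1* transcript. The transcript sequences are those of the GENCODE vM21 annotation, from position 635 to 754 of *Rps3a1*, and capitals mark the bases at which a copy differs from the parent, the first shared capital being T667C.
Rps3a1: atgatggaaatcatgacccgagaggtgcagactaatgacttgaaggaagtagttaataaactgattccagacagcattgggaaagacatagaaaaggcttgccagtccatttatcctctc
Rps3a2: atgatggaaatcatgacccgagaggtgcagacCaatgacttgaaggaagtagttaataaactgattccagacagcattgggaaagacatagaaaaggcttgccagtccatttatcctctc
Rps3a3: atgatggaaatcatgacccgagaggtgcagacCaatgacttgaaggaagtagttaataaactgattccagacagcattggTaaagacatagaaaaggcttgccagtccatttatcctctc
Gm5586: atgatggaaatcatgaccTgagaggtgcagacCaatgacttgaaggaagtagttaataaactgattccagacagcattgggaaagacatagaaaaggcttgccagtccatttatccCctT

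Reads that fall where copy and parent are identical cannot be assigned to one of them, and the 3 copies cannot be read as independent genes. The copies were also higher in other populations: *Rps3a3* had log2 fold changes of 5.12 in CMPs, 4.75 in GMPs and 5.02 in MEPs (edgeR adjusted p of 2.82e-06, 3.23e-05 and 5e-07). The change in CLPs minus the mean of those in CMPs, GMPs and MEPs was -0.27 for *Rps3a3* (edgeR adjusted p = 0.864), -0.66 for *Rps3a2* (0.415) and -0.59 for *Gm5586* (0.684). On a scale set over all 46 libraries, *Rps3a3* was at 267 ± 85.5 CPM in Tet2KO and 10.1 ± 2.23 CPM in WT CLPs (SD, n = 4 each), the lowest mean among the knockout populations, with libraries at 164 to 355 CPM that overlapped those of GMPs (294 to 427 CPM), and at 791 ± 149 CPM (n = 4) and 22.4 ± 2.82 CPM (n = 3) in long-term stem cells.

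**Figure D3:**
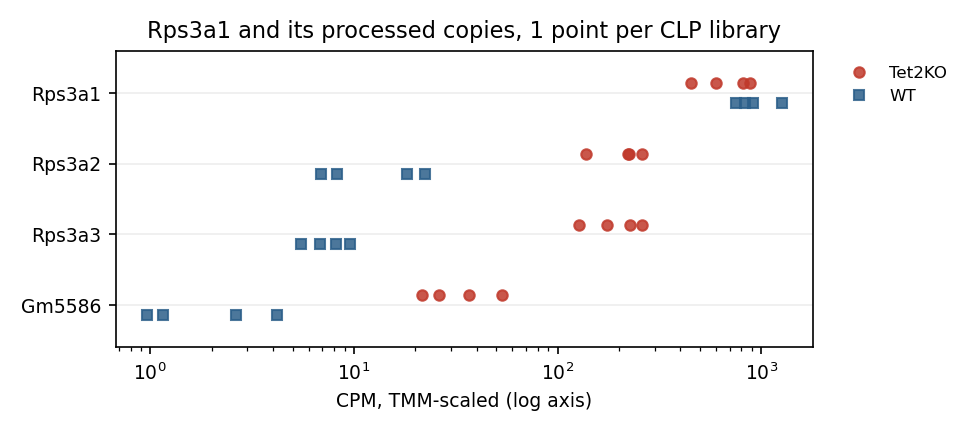
Each point is the level of *Rps3a1* or of one of its 3 processed copies in 1 CLP library (CPM, TMM-scaled, log axis), circles for Tet2KO and squares for WT, 4 libraries each. The 3 copies lie higher in every Tet2KO library, *Rps3a3* at 127 to 261 against 5.53 to 9.53 CPM, while *Rps3a1* overlaps between groups.

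Below the threshold, 12 genes were taken for the smallest unadjusted p among those at least 2-fold lower, at a mean of at least 10 CPM and with groups that do not overlap, so that their separation is fixed by the choice. They had edgeR adjusted p-values from 0.301 to 0.383. *Ccr8*, a chemokine receptor of T helper 2 and regulatory T cells, was at 4.7, 20.2, 6.17 and 14.5 CPM in Tet2KO and 132, 117, 137 and 163 CPM in WT. The groups were far apart, with a log2 fold change of -3.59 (SE 0.51), and -3.74 without Tet2KO 2 and 3. *Ccr9*, the chemokine receptor that directs progenitors to the thymus and a CLP marker here, was at 26.3, 22.1, 23 and 22.3 CPM in Tet2KO and 39.3, 138, 214 and 188 CPM in WT (-2.63, SE 0.49). WT 2 was the lowest WT library and still above all Tet2KO libraries. *Cxcr4*, the receptor that holds progenitors in the marrow, was at 14.3, 30.5, 25.2 and 17.8 CPM in Tet2KO and 65, 73.1, 91 and 77 CPM in WT (-1.80, SE 0.34).

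*Gata3*, a transcription factor of T cells and group 2 innate lymphoid cells, was at 91.4, 88.8, 104 and 87.3 CPM in Tet2KO and 165, 257, 444 and 342 CPM in WT. Tet2KO libraries lay close together and below all WT libraries, and the log2 fold change was -1.70 (SE 0.33) with and -1.69 without Tet2KO 2 and 3. *Gata3* is also a marker of group 2 innate lymphoid cells here. Of 8 such markers 7 were tested, with 2 positive and 5 negative differences and a median of -1.70 (-1.86 without Tet2KO 2 and 3). None was called by edgeR, and DESeq2 called *Gata3* lower, beside 0.904% of all genes it tested. The summed level of the markers was 2000, 694, 805 and 496 CPM in Tet2KO and 704, 968, 1910 and 1400 CPM in WT, with overlap. *Gata3* and *Areg*, the growth factor amphiregulin (0, 1.07, 0 and 0 against 11.5, 1.21, 12.1 and 31.2 CPM), were the 2 of 7 that did not overlap, beside 1.94% of all genes in that direction, *Il13* had no count in any library, and the part of these cells in the *Gata3* difference was not tested. *Cd83*, a surface protein of activated lymphoid cells, was at 44.8, 32.6, 47.8 and 54.7 CPM in Tet2KO and 224, 177, 194 and 103 CPM in WT (-1.96, SE 0.32). *Tsc22d3*, a glucocorticoid-induced leucine zipper protein, was at 204, 188, 239 and 229 CPM in Tet2KO and 454, 645, 780 and 563 CPM in WT (-1.50, SE 0.27). *Lmna*, lamin A of the nuclear envelope, was at 21, 8.67, 7.83 and 10.4 CPM against 90, 56.5, 52.4 and 63.9 CPM, and *Nedd9*, an adhesion scaffold, at 13.8 to 20.2 against 40.1 to 77.3 CPM.

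*Nfkbia*, which encodes the NF-kappa B inhibitor I kappa B alpha and is itself induced by NF-kappa B, was at 627, 483, 743 and 676 CPM in Tet2KO and 1460, 2300, 2070 and 1990 CPM in WT. The highest Tet2KO library was below the lowest WT library. The log2 fold change was -1.63 (SE 0.29, edgeR adjusted p = 0.376) and -1.49 without Tet2KO 2 and 3. In the other progenitors *Nfkbia* was called lower: -1.32 in CMPs, -1.14 in GMPs and -1.50 in MEPs (edgeR adjusted p of 0.0128, 0.0109 and 0.00941), and its change in CLPs differed from their mean by -0.32 (adjusted p = 0.735). Its promoter is shown because *Nfkbia* is the textbook target of the kappa B motif: the 250 bases before the start, chr12:55492648-55492897 (minus strand, RefSeq, GRCm38.p6), hold 1 match to the kappa B motif, searched on both strands, which starts 29 bases before the start site and is in capitals.
Nfkbia promoter: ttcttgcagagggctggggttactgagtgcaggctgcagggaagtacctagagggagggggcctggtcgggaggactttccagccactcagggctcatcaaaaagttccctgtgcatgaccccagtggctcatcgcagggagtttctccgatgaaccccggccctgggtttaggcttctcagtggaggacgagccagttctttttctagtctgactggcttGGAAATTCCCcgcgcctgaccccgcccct

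The kappa B motif was searched in a narrow form only, so other forms of it were not counted. The form searched occurred in 1.41% of 32851 mouse promoters of this length. It was in 0 of the 25 promoter windows available for 21 of the immediate early genes. The cyclic AMP response element (1.55% of all promoters) occurred in 2 of the 25 windows, those of *Btg2* and *Dusp1*. The CArG box (1.47%) occurred in 5, of which 1 belonged to *Zfp36* and the others to windows of *Egr2*, some of which overlap, so that these held 2 separate matches. These matches describe the letters in the window and say nothing of binding.

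Immediate early genes, which cells switch on within minutes of a stimulus, lay lower in Tet2KO CLPs almost throughout. Of 25 tested, 24 differences were negative and 1 positive, 12 had an unadjusted p of at most 0.05 with 2-fold, beside 1.65% of all genes, and none was called by edgeR. DESeq2 called 6 lower, beside 0.904% of all genes, and the fit of all 46 libraries called 10, beside 2.12%. Groups did not overlap for 11 of the 25, against 1.94% of all genes. The median was -1.38 beside 0.07 over all genes, and -1.37 without Tet2KO 2 and 3. Summed, the list was at 4980, 7010, 9280 and 4080 CPM in Tet2KO and 15100, 24900, 21600 and 16900 CPM in WT. Over all 17 other settings tried, the median lay between -1.17 and -1.52.

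*Fos*, a subunit of the AP-1 factor, was at 585, 2340, 2620 and 1230 CPM in Tet2KO and 4320, 7970, 9580 and 5590 CPM in WT. Tet2KO 2 was lowest and no library of one group reached the other (log2 fold change -2.02, SE 0.53, edgeR adjusted p = 0.82). *Nr4a1*, an orphan nuclear receptor induced by antigen receptor signals, was at 170, 338, 468 and 133 CPM in Tet2KO and 1410, 1660, 1250 and 1400 CPM in WT (-2.37, SE 0.44, edgeR adjusted p = 0.376). *Egr2*, a zinc finger factor induced by the same signals, was at 0, 0.101, 20.4 and 0.387 CPM in Tet2KO and 151, 127, 75 and 56.3 CPM in WT. It was near absent from 3 Tet2KO libraries, and its log2 fold change of -4.29 had an SE of 1.93 and became -9.08 without Tet2KO 4, the one Tet2KO library with more than a trace.

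*Junb*, another AP-1 subunit, was at 759, 1060, 1310 and 355 CPM in Tet2KO and 2100, 2830, 2520 and 2110 CPM in WT (-1.46, SE 0.42). *Ier2*, a nuclear response protein, was at 596, 529, 692 and 404 CPM against 1100, 1590, 1380 and 1460 CPM (-1.32, SE 0.29). *Zfp36*, an RNA-binding protein that speeds the decay of cytokine messages, was at 759, 706, 1120 and 563 CPM against 1660, 2680, 2320 and 1860 CPM (-1.44, SE 0.33). *Jun*, *Btg2*, *Nr4a2*, *Egr3* and *Klf2* likewise did not overlap. The other 14 genes overlapped between groups. Among these, *Dusp2*, a phosphatase of MAP kinases, had the one positive difference, 0.09, and *Myc*, a growth regulator, had -0.15. Both signs turned when 1 library was left out. *Dusp2* then ranged from -0.4 (without Tet2KO 2) to 0.44, and *Myc* from -0.42 to 0.09 (without Tet2KO 2).

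**Figure D4:**
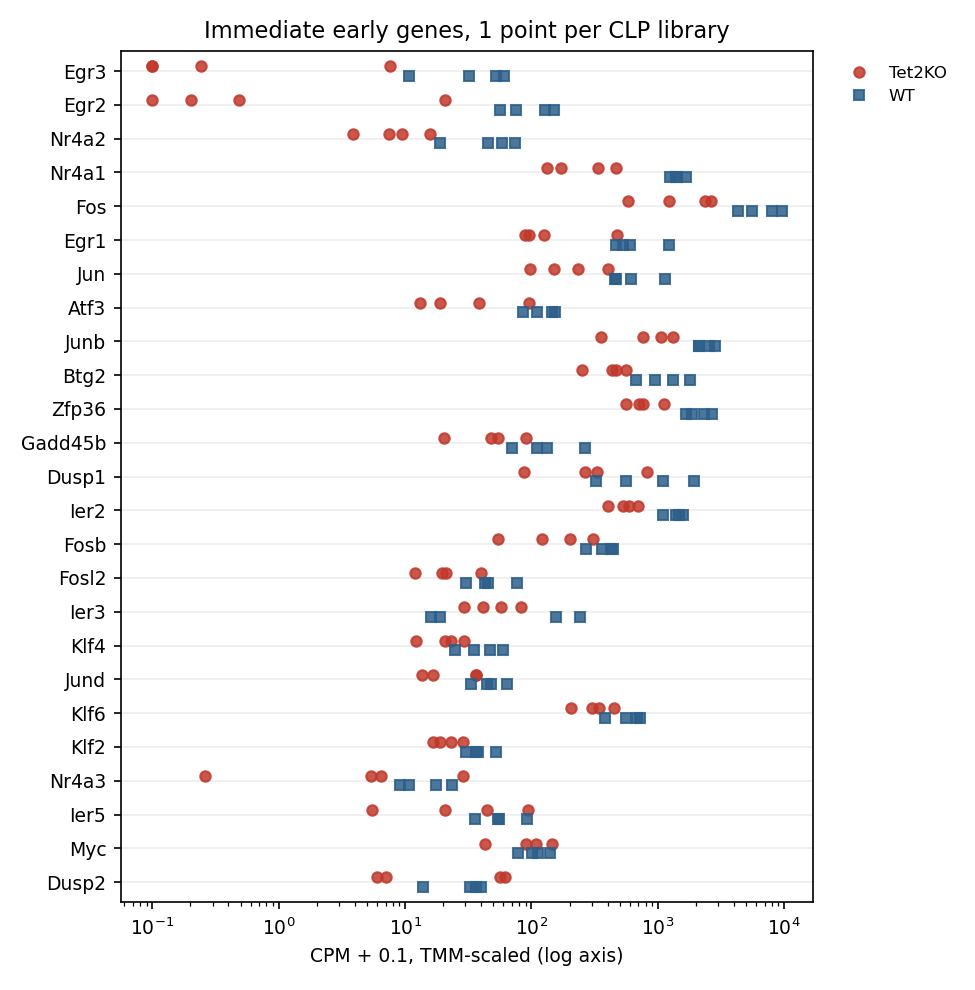
Each point is the level of an immediate early gene in 1 CLP library (CPM + 0.1, TMM-scaled, log axis), circles for Tet2KO and squares for WT, 4 libraries each, genes ordered by log2 fold change. Squares lie to the right of all circles for 11 of the 25 genes, among them *Fos* with 4320 to 9580 CPM in WT against 585 to 2620 CPM in Tet2KO.

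The list was then read in the other populations. In CMPs 24 of 25 differences were negative and 12 were called lower, beside 3.92% of all genes (median -1.19). In GMPs these were 24 of 25 and 6, beside 4.06% (-0.71), and in MEPs 22 of 23 and 7, beside 4.21% (-1.23). On the scale of all 46 libraries, 14 of 25 means were lower and 11 higher in Tet2KO long-term stem cells, and 17 and 8 in short-term ones (4 Tet2KO and 3 WT libraries each, not tested here). *Fos* was at 970 ± 132 CPM in Tet2KO and 715 ± 291 CPM in WT long-term stem cells, and at 852 ± 288 and 664 ± 292 CPM in short-term ones (SD, n = 4 and 3), with overlapping libraries. CMPs, GMPs and MEPs share mice with the CLPs if equal numbers mark equal mice, so they are not a separate replication. When the difference between CLPs and these 3 populations was tested, it passed for 2 of the 25, 1 in each direction, beside 5.31% of all genes upward and 1.82% downward, so it is not a result about the list. For *Fos* the change in CLPs minus the mean of the others was -1.45 (edgeR adjusted p = 0.0406), with -1.02, -0.52 and -0.28 in CMPs, GMPs and MEPs. For *Dusp1*, another MAP kinase phosphatase, the difference went the other way and was 1.79 (adjusted p = 0.0363), with -1.38 in CLPs and -2.82, -4.20 and -2.53 in CMPs, GMPs and MEPs. Both calls depended on which libraries were in the fit. When 1 CLP library was left out, the difference for *Fos* lay between -1.74 and -1.17 and passed in 4 of 8 fits, being lost without Tet2KO 2, Tet2KO 5, WT 3 or WT 4 (edgeR adjusted p of 0.0195 to 0.104 over the fits). That for *Dusp1* lay between 1.09 (without Tet2KO 4) and 2.28 (without WT 3) and passed in 5 of 8, being lost without Tet2KO 4, WT 4 or WT 5 (0.0052 to 0.19), while its change in CLPs alone ranged from -2.11 (without Tet2KO 4) to -0.82 (without WT 3).

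The 12 uncalled genes on the higher side, taken by the same rule, were led by *Rps3a1* copies, and the other 10 had edgeR adjusted p-values from 0.376 to 0.831. *Lyst*, a regulator of lysosome traffic, was at 100, 59.3, 38.3 and 55.2 CPM in Tet2KO and 9.22, 14.4, 15.6 and 15.6 CPM in WT (log2 fold change 2.21, SE 0.42, and 1.75 without Tet2KO 2 and 3). *Zmiz1*, a coactivator of NOTCH1 in T cell development, was at 61.5, 50.6, 59.5 and 42.1 CPM in Tet2KO and 8.67, 21.3, 4.4 and 12.7 CPM in WT (2.18, SE 0.53). *Polr2h*, a subunit shared by the RNA polymerases, was at 49.6, 59.6, 62.9 and 39.7 CPM against 13, 19.2, 17.9 and 7.29 CPM (1.88, SE 0.43). The choice again fixed that these groups do not overlap.

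*Zfp81*, a zinc finger gene, was at 26.3, 8.27, 40.6 and 35.8 CPM in Tet2KO and 0.259, 0, 0.117 and 0 CPM in WT. The lowest Tet2KO library was far above the highest WT library, and WT 3 and 5 had no count. The others included *Hnrnpdl*, an RNA-binding protein, at 155 to 270 against 82.0 to 112 CPM, *Arglu1*, a splicing modulator, at 147 to 205 against 76.4 to 98.5 CPM, *Ncbp2*, the cap-binding subunit, at 39.7 to 63.8 against 10.0 to 23.9 CPM, and *Nsd1*, a histone H3 methyltransferase, at 57.0 to 79.9 against 16.8 to 38.9 CPM. *Sptbn1*, a spectrin of the membrane skeleton, stood at 96.0 to 139 against 38.0 to 73.7 CPM, and *Yipf1*, a Golgi protein, at 45.7 to 101 against 19.0 to 27.5 CPM.

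No member of the lymphoid lists was called by edgeR. DESeq2 called *Ccr9*, which is on the early lymphoid list, lower, beside 0.904% of all genes it tested. Of 33 early lymphoid factors tested, 24 differences were positive and 9 negative, with a median of 0.46 (0.63 without Tet2KO 2 and 3). *Bcl11a*, a factor needed for early B cell development, was at 28.5, 34.9, 29.4 and 35.6 CPM in Tet2KO and 8.4, 5.54, 0.281 and 17.2 CPM in WT, without overlap (log2 fold change 2.02, SE 0.96, edgeR adjusted p = 1). *Satb1*, a chromatin organiser of early lymphoid cells, was at 77.7, 46.1, 107 and 69.6 CPM against 27.1, 45.4, 42.5 and 48.8 CPM, where Tet2KO 3 lay inside the WT range. *Ikzf3*, the lymphoid factor Aiolos, was at 49.9, 58.6, 56.6 and 34.4 CPM in Tet2KO and 51.3, 171, 222 and 109 CPM in WT. WT 2 lay among the Tet2KO libraries, and the log2 fold change was -1.47 (SE 0.44).

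The 25 B-lineage genes split into 12 positive and 13 negative differences, with a median of -0.07 (-0.39 without Tet2KO 2, -0.09 without Tet2KO 2 and 3). *Cd79a*, a signalling chain of the B cell receptor, was at 28.9, 157, 224 and 206 CPM in Tet2KO and 211, 491, 440 and 354 CPM in WT (-1.28, SE 0.58), and *Cd79b* at 44.3, 57.1, 190 and 149 CPM against 164, 335, 358 and 131 CPM (-1.17, SE 0.55). Both were lowest in Tet2KO 2, and both overlapped. *Ebf1*, the early B cell factor, was at 0.897 to 10.5 CPM in Tet2KO and 0 to 2.29 CPM in WT. Signalling genes downstream of the interleukin 7, FLT3 and KIT receptors split 15 to 13 with a median of 0.09 (-0.24 without Tet2KO 2 and 3), and Notch pathway genes 11 to 5 with a median of 0.19 (0.14). *Ccnd2*, a G1 cyclin induced by cytokines, was at 273, 216, 368 and 252 CPM against 337, 716, 550 and 473 CPM, with only Tet2KO 4 above the lowest WT library (-0.90, SE 0.32, edgeR adjusted p = 1).

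Nucleic acid sensors and interferon-stimulated genes, the pathway that the study took up, had no edgeR call in CLPs. Of 30 sensors and adaptors tested 16 differences were positive and 14 negative (median 0.07, and -0.22 without Tet2KO 2 and 3). *Samhd1*, a nucleotide triphosphohydrolase that limits the cell's DNA precursors, was at 53.6, 60, 61.2 and 66 CPM in Tet2KO and 82, 178, 164 and 95 CPM in WT, without overlap (-1.11, SE 0.31, edgeR adjusted p = 0.896). Of 57 interferon-stimulated genes 42 were positive and 15 negative, with a median of 0.39 that became -0.04 without Tet2KO 2 and 3. Their groups did not overlap for 2 that were higher and 3 that were lower, against 1.94% of all genes in either direction.

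Among those, *Trim30a*, an interferon-induced ubiquitin ligase, was at 95.2, 80.5, 69.1 and 54.6 CPM in Tet2KO and 42.9, 49.3, 41.3 and 35.8 CPM in WT (0.82, SE 0.28). *Bst2*, the tether of budding viruses, was at 19.4, 38.7, 52.9 and 34.9 CPM against 61.2, 93.3, 75.4 and 53.3 CPM (-0.96, SE 0.37). The groups met at neither gene, although Tet2KO 4 and WT 5 of *Bst2* were almost equal. *Ifnb1*, interferon beta, had no count in any of the 8 libraries, and *Il6*, interleukin 6, was at 0, 0.0506, 0 and 3.12 CPM in Tet2KO and 117, 54.6, 0.0936 and 0 CPM in WT. *Il6* RNA above 1 CPM was thus seen in WT 2, WT 3 and Tet2KO 5.

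Genes of antigen presentation leaned lower, with 7 positive and 14 negative differences among 21 (median -0.23, and -0.43 without Tet2KO 2 and 3) and none called by edgeR. *Cd74*, the invariant chain of MHC class II, was at 751, 858, 1120 and 1100 CPM in Tet2KO and 1580, 2580, 2620 and 1720 CPM in WT, without overlap (-1.15, SE 0.32, edgeR adjusted p = 0.831). Cell cycle genes had 33 positive and 10 negative differences, with a median of 0.35 that became 0.68 without Tet2KO 2, 0.16 without Tet2KO 3 and 0.56 without both. DNA repair genes had 51 and 17 (median 0.29 with and without Tet2KO 2 and 3). *Cdkn1a*, the cell cycle inhibitor p21, was at 84.4, 46.6, 77.8 and 108 CPM in Tet2KO and 196, 194, 142 and 128 CPM in WT (-1.06, SE 0.31). *Wrn*, a DNA helicase of repair, was at 33.3, 36.2, 26.5 and 25.8 CPM against 13.5, 5.52, 6.62 and 7.12 CPM (1.89, SE 0.54). Neither overlapped, and neither passed the edgeR test (adjusted p of 0.978 and 0.896).

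In the BCL2 family, 10 differences were positive and 7 negative. *Bbc3*, the death inducer PUMA, was at 1.07, 2.96, 2.27 and 1.53 CPM in Tet2KO and 16.3, 27.5, 9.36 and 6.95 CPM in WT (log2 fold change -2.92, SE 0.95, edgeR adjusted p = 1). Every WT library was above every Tet2KO library. Ribosomal protein genes had 73 positive and 9 negative differences of 82, with a small median of 0.24 (0.28 without Tet2KO 2 and 3), and their share of all counts was 6.946%, 4.412%, 3.745% and 4.898% in Tet2KO and 3.625%, 2.46%, 2.635% and 3.175% in WT. The shares did not overlap (exact permutation over libraries, two-sided, p = 0.0286), but after TMM scaling the summed level did, at 48300, 31600, 37400 and 47900 CPM in Tet2KO and 36600, 32700, 38100 and 35200 CPM in WT. *Rpl38*, a large-subunit protein, was at 725, 259, 332 and 541 CPM in Tet2KO and 167, 139, 229 and 183 CPM in WT (1.37, SE 0.37, edgeR adjusted p = 0.831). Genes of the mitochondrial genome had a median of 0.52 with 31 of 33 positive, and of -0.01 without Tet2KO 2 and 3.

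Finally, each gene's change in CLPs was set against the mean of its changes in CMPs, GMPs and MEPs, in one edgeR fit of 32 libraries. Of 19963 genes, 1061 differed upward (5.31%) and 363 downward (1.82%). With the mouse as a block, taking equal numbers to mark equal mice, these counts were 493 and 120. Without Tet2KO 2 and 3 they were 1120 and 429. These fits took a common spread per gene over the populations together. Where CLP libraries varied more than the others, the p-values understate the spread of CLPs. The leading genes named here were of 2 kinds. In the first, the other progenitors had a called change and CLPs had none: *Uqcrfs1*, the iron-sulphur subunit of respiratory complex III, had log2 fold changes of -3.12, -2.59 and -3.67 in CMPs, GMPs and MEPs (all called) and 0.23 in CLPs, a difference of 3.34 (SE 0.24, adjusted p = 1.85e-09). On the scale of all 46 libraries its level was 201 ± 62.3 CPM in Tet2KO and 171 ± 45.0 CPM in WT CLPs, while CMPs had 29.2 ± 5.20 and 253 ± 14 CPM (SD, n = 4 each). *Tomm20*, a receptor of mitochondrial protein import, and *Rnaset2a*, a lysosomal ribonuclease, did likewise, with differences of 2.79 and 3.25 and changes of 0.27 and -0.45 in CLPs that edgeR did not call.

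In the second kind, the difference lay in CLPs. *Lars2*, the mitochondrial leucyl-tRNA synthetase, was at 5.59, 30.2, 11.6 and 1.74 CPM in Tet2KO and 251, 278, 244 and 246 CPM in WT CLPs. The WT libraries lay within a narrow band, and the log2 fold change was -4.37 (SE 0.80, edgeR adjusted p = 0.376 within CLPs), and -5.34 without Tet2KO 3. In CMPs, GMPs and MEPs it was 0.44, 0.69 and 0.05, and the difference of -4.82 (SE 0.57) had an adjusted p of 7.49e-06. It lay between -5.74 (without Tet2KO 3) and -4.46 (without Tet2KO 5) when 1 CLP library was left out, and passed each time. On the scale of all 46 libraries, *Lars2* was at 341 ± 19.9 CPM in WT CLPs (n = 4) and at group means of 5.63 to 19.4 CPM in the other 11 groups, so WT CLPs were the group that stood out.

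Several more genes had counts in only 1 genotype of CLPs. *Tha1*, a threonine aldolase, was at 11.9, 15.2, 7.25 and 4.67 CPM in Tet2KO with no count in any WT library, and *Lactb*, a mitochondrial protease, at 0.709, 1.59, 3.03 and 2.68 CPM with none in WT. *Rec8*, a meiotic cohesin subunit, had no count in Tet2KO and 18.6, 6.97, 6.44 and 16.2 CPM in WT. All 3 passed the test of the difference from other progenitors (edgeR adjusted p of 3.41e-09, 1.25e-08 and 7.53e-06). *Lyst*, *Polr2h* and *Zmiz1* also passed it, with differences of 2.06, 1.81 and 2.13 (adjusted p of 0.00391, 0.000274 and 0.000832), as did *Rilpl2*, a regulator of ciliary transport, on the lower side with -1.67 (0.000306). *Tsc22d3* and *Cxcr4* did not, with differences of -0.14 and -0.83 (adjusted p of 0.957 and 0.0627). *Lyst*, *Polr2h*, *Zmiz1*, *Rilpl2* and *Lars2* had been picked for their change in the same CLP libraries. Their passing is therefore no separate support for that change.

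**Figure D5:**
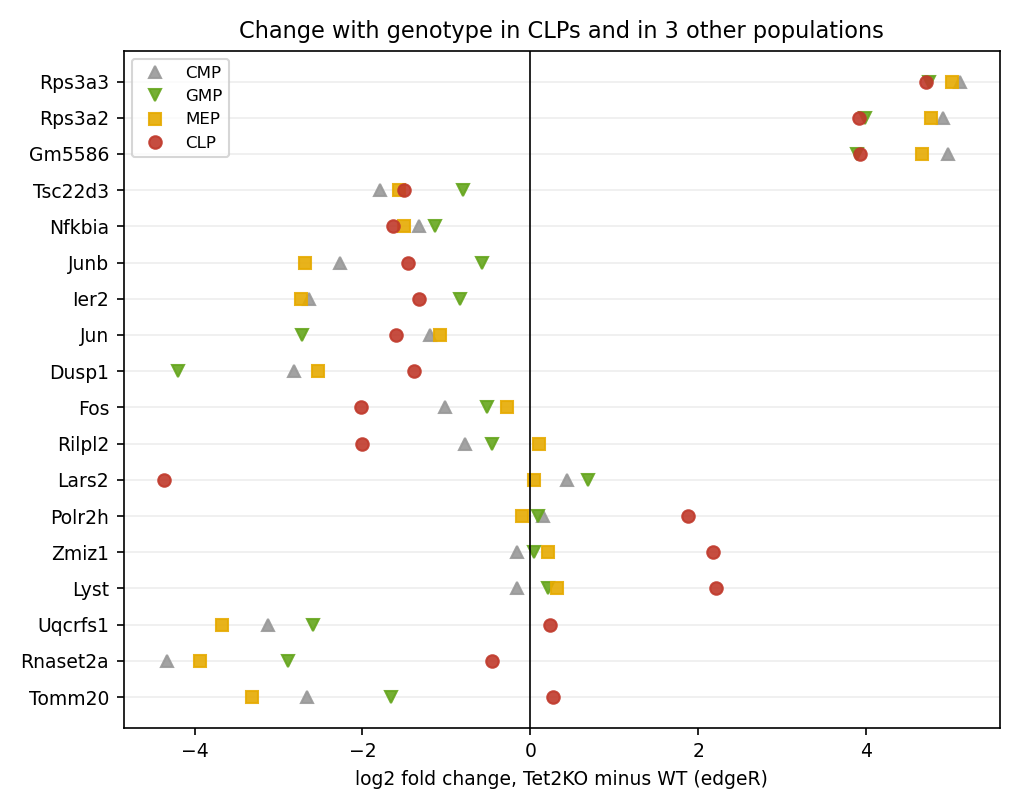
Each symbol is the log2 fold change of Tet2KO against WT (edgeR, horizontal axis) of 1 gene in CLPs (circles), CMPs, GMPs or MEPs (other symbols), each from 4 against 4 libraries. The *Rps3a1* copies and *Nfkbia* lie together in all 4 populations, *Uqcrfs1*, *Rnaset2a* and *Tomm20* are low in the other progenitors alone, and *Lars2* is low in CLPs alone at -4.37.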

How the data were processed

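RNA was measured by bulk RNA-seq of sorted mouse marrow cells. The deposited values are raw counts of reads per gene, which the authors made from paired-end reads trimmed with Trim Galore (0.6.7 per the labels), mapped with HISAT2 to mm10; the counting program is not given in the sources used here. All columns of the table were matched to samples by name. Each CLP library held 61777945 to 90999591 counts.

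R 4.3.3 and edgeR 4.0.16 were used to test the counts (TMM scaling after filterByExpr, quasi-likelihood fit of the 8 libraries, prior count 2, Benjamini-Hochberg adjustment over all genes, calls at 0.05 and 2-fold). DESeq2 1.42.0, limma 3.58.1 with quality weights, RLE scaling, other filters, all 46 libraries, a replicate block, leaving out libraries and leaving out immunoglobulin genes were alternatives. Single values had a two-sided exact permutation test of the libraries. The contrast with other progenitors used 32 libraries and a common spread per gene over all of them. On data simulated with the spread that edgeR estimated for these libraries, edgeR and limma recovered few of the changed genes. Most genes DESeq2 called there were unchanged ones. Coordinates are those of GENCODE vM21, which matched 55240 gene IDs.

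Genes named were the called genes, up to 12 uncalled genes per direction with the smallest p among those 2-fold changed, not overlapping and at a mean of at least 10 CPM, the 10 leading genes of each library, and members of lists by p or level. Some list members outside this rule, such as *Igll1* and *Rag2*, were picked after their values were seen. The members and lists were chosen with earlier results of these data known, so lists have no p.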

Additional observations from a re-analysis of the deposited data

Results flagged for a closer look

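Of 86 groups of 4 values checked, 3 held a value far from the other 3. This is no more than chance alone gives, which is about 1 in 20. *Mavs*, the adaptor of RNA sensors, was at 79.7 CPM in Tet2KO 3 against 7.13, 0.105 and 6.92 CPM in the other Tet2KO libraries. *Ube2d3*, a ubiquitin-conjugating enzyme, was at 167 CPM in Tet2KO 3, and *Il6* at 3.12 CPM in Tet2KO 5.

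The change with genotype differed between CLPs and the mean of CMPs, GMPs and MEPs by edgeR for the 12 genes named here. They are the leading ones of each direction taken separately, not the 12 smallest p of the contrast. Upward, the log2 differences were 3.34 for *Uqcrfs1*, 3.25 for *Rnaset2a*, 2.79 for *Tomm20*, 8.74 for *Tha1*, 7.2 for *Lactb* and 7.84 for *Zfp81*. Downward, they were -4.82 for *Lars2*, -9.12 for *Rec8*, -6.94 for *Gm13205*, -3.92 for *Dvl1*, -5.53 for *9130019O22Rik* and -7.18 for *Zcchc3*. *Tha1*, *Lactb*, *Rec8* and *Gm13205* had no count in 1 genotype of CLPs, so their fitted differences depend on the prior count and are no bound. *Gm13205* had 1.33, 3.7, 2.18 and 3.46 CPM in WT. It is an antisense gene, and without strand information its reads cannot be told from those of its partner.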

How the results depend on the processing

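Genes called higher numbered 1 in the edgeR test of the 8 libraries, 292 with DESeq2, 1002 with all 46 libraries in one fit, 174 at an unadjusted p, 2 without Tet2KO 2 and 3 (*Rps3a3* and *Igkv2-137*), 0 with a replicate block and 0 to 1 when 1 library was left out, the call of *Rps3a3* being lost without WT 2, WT 3 or WT 5. Genes called lower numbered 0, 172 with DESeq2, 475 with all 46 libraries, 215 at an unadjusted p and 2 with limma's quality weights. *Rps3a3* had an adjusted p of 0.0661 with limma's quality weights and 0.3 with the replicate block in edgeR. Its log2 fold changes there were 4.64 and 4.68, beside 4.71 in the main fit. The contrast with other progenitors called 2144 higher and 939 lower with DESeq2. It called 493 and 120 with the mouse as a block (replicate block, taking equal numbers to mark equal mice), and 859 to 1263 and 330 to 535 when 1 CLP library was left out. *Mavs* (0.47) turned to -1.66 with the replicate block, -2.11 with quality weights, -1.84 without Tet2KO 3 (-1.84 to 0.88 when 1 library was left out) and -2.25 without Tet2KO 2 and 3. The last setting and the fit without immunoglobulin genes were chosen after the data were seen. The cause of these changes was not tested. Replicate numbers did not pair the CLP samples: deviations of equal numbers correlated at -0.03, -0.002, -0.015 and -0.008. Of 560 values of single genes, 507 kept their direction and side of the threshold, 44 passed it anew, 5 lost it and 4 turned. Of 572 list medians 8 moved beyond the spread, among them T cell markers, to 0.34 with DESeq2, and B cell markers, to 1.12 without WT 2. Depth set a limit of 0.0285 to 0.07 CPM per library.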
